A study of Mus musculus with 8 samples.

Results

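The genes described here are 37 genes of cholesterol and fatty acid metabolism, followed through TFR, TFH, Treg, and naïve CD4 T cells of immunized mice. They were taken by name and comprise 18 enzymes of sterol synthesis, 6 genes that control the SREBP transcription factors or carry sterol inside the cell, 10 genes of fatty acid synthesis, desaturation and elongation, and 3 genes that export cholesterol or are known as targets of the LXR nuclear receptors. A gene was kept if, in 1 cell type or more, the 2 arrays both had its probe with the highest mean log2 level well above background, a flag that the scanner software had to set on more than 50% of the retained spots. This held for 36 of the 37 genes, which are among 15764 genes tested of 29924 gene names on the array. The exception was Fads2, the delta-6 desaturase, whose level lay between 20 and 51 and was well above background only on the array of TFH cells at d12. Scd1, a stearoyl-CoA desaturase, was well above background on 4 of the 8 arrays, and the other 35 genes on all 8.

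The mice were of the strain B6.Cg-Foxp3<tm1Mal>, in which cells expressing Foxp3 carry EGFP. They were of both sexes, 8 to 14 weeks old, and received KLH with alum s.c. Cells from pLN of pools of 8 to 15 mice were sorted at d12 or d25 p.i. as naïve CD4 T cells (GFP-PD1-GL7-), TFH cells (GFP-PD1hiGL7+), Treg cells (GFP+PD1-GL7-), and TFR cells (GFP+PD1hi, GL7+ or GL7-), and the labeled cRNA of each array was made from 25 ng of RNA. The 8 one-color arrays hold each cell type once at each day, so that n = 2 arrays per cell type and neither day has a replicate of its own. All mice were immunized, naïve refers to the sort gate, and TFR cells were not restricted to GL7+ cells as TFH cells were. Levels are background-corrected spot signals in relative units (RU), averaged per probe, quantile normalized, scaled to a 75th percentile of 1500 and floored at 20. Differences are log2 differences from a linear model of cell type and day, given with their SE. They are means over d12 and d25, and a gene is referred to as called if its Benjamini-Hochberg adjusted p over all genes tested was below 0.05.

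Cells make cholesterol and fatty acids from acetyl-CoA. When membranes of the endoplasmic reticulum are poor in sterol, the escort protein Scap carries the precursors of SREBP1 and SREBP2 to the Golgi, where proteases release the transcription factors that switch on most enzymes of both pathways, whereas the Insig proteins retain Scap when sterol is plentiful. Excess cholesterol is converted to oxysterols, which activate LXR and thereby the exporters. Resting lymphocytes need little new lipid, and T cells that start to divide are known to raise SREBP activity.

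Identity of the sorted cells was checked on their defining genes. Foxp3 had levels between 37266 and 49262 on the Treg and TFR arrays and between 66 and 358 on the others. Of the other Treg markers, Lrrc32 and Il2ra had levels between 14489 and 33687 on these arrays and between 62 and 249 on the others. Ikzf2 was high in TFH cells too (10506 and 10814), with 81 and 145 in naïve CD4 T cells. It had 9925 and 11103 in Treg cells and 22902 and 28617 in TFR cells. Cxcr5 had levels between 35322 and 237465 on the TFH and TFR arrays and between 1400 and 4384 on the others. The summed level of 14 proliferation genes was 33273 and 34717 in naïve CD4 T cells, 42109 and 46954 in Treg cells, 55200 and 65571 in TFH cells, and 111911 and 133339 in TFR cells, with Aurkb not well above background on any array. The summed level of 8 B cell markers was 16042 on the TFH array of d25 and between 5483 and 10062 on the other arrays, with Pax5 at the floor everywhere. Markers of antibody-secreting cells (4 genes) summed to 15144 on the naïve array of d12 and to between 960 and 7308 on the others. The 7 myeloid markers summed to between 17690 and 30280, most of it Itgam, and the 2 CD8 chains to between 2110 and 5118. Cd68, a lysosomal protein of macrophages, was higher in both follicular cell types, with levels of 551 and 564 in naïve CD4 T cells, 5098 and 3768 in TFH cells, 368 and 394 in Treg cells, and 2868 and 2333 in TFR cells (2.98 ± 0.16 and 2.76 ± 0.16), whereas the macrophage markers Adgre1 and Cd14 were not well above background on any array. The part of these cells in the differences below was not tested. The arrays of d12 share a slide, whereas at d25 naïve CD4 T and TFH cells share another slide and Treg and TFR cells the last.

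The regulatory sequence in front of these genes is shown for 7 of them on which the results turn, namely Mvd, Idi1, Acss2, and Mylip, lower in both follicular cell types, Srebf2, lower in TFR cells, Tm7sf2, higher in TFH cells, and Hmgcs1, which carries a motif of the SREBP proteins. Of the 37 genes, 29 were found in a RefSeq table of promoters (GRCm38.p6), 5 of them with several starts, and Fdps, Fdft1, Sqle, Stard4, Scd1, Scd2, Fads1, and Abcg1 were not. The 250 bases before each start were searched on both strands for a sterol regulatory element (TCACNCCAC or its complement GTGGNGTGA), a CCAAT box (CCAAT or ATTGG), bound by NF-Y, and a GC box (GGGCGG or CCGCCC), bound by Sp1. NF-Y and Sp1 are known to act together with SREBP proteins at such promoters. The sequences below run 5′ to 3′ on the strand of the gene, with matches in capitals. They are the promoters of Hmgcs1 (chr13:119690101-119690350, plus strand), Mvd (chr8:122443423-122443672, minus strand), Idi1 (chr13:8885356-8885605, plus strand), Acss2 (chr2:155517793-155518042, plus strand), Mylip (chr13:45389492-45389741, plus strand), Srebf2 (chr15:82147019-82147268, plus strand), and Tm7sf2 (chr19:6067851-6068100, minus strand).
Hmgcs1: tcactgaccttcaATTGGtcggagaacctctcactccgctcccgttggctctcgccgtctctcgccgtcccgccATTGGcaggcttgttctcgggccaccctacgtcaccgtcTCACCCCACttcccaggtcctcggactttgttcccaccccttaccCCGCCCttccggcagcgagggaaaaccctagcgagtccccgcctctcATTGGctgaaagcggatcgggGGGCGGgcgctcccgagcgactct
Mvd: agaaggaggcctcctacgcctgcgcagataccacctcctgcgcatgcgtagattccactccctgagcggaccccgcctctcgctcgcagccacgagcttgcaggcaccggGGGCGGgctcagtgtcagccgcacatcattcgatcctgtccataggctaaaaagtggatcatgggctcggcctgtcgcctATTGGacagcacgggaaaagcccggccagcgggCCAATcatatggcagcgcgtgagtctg
Idi1: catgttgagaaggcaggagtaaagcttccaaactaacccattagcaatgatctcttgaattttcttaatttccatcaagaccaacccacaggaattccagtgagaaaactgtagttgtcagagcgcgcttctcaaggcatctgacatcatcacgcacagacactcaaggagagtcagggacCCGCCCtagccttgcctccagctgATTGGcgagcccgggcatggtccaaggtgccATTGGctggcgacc
Acss2: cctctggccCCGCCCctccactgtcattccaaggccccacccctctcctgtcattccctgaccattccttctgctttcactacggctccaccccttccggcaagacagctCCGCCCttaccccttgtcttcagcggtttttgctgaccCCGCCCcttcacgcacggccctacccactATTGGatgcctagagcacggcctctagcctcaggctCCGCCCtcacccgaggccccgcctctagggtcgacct
Mylip: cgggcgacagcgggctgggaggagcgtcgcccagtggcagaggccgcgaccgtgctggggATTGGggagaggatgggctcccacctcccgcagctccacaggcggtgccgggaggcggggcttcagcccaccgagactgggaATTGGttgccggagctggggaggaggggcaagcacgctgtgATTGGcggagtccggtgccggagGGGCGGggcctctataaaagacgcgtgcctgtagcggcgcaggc
Srebf2: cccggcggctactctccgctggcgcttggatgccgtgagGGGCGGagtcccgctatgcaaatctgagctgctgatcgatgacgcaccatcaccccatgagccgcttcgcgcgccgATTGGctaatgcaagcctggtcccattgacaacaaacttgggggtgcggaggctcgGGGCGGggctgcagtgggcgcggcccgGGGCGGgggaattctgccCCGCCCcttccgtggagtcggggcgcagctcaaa
Tm7sf2: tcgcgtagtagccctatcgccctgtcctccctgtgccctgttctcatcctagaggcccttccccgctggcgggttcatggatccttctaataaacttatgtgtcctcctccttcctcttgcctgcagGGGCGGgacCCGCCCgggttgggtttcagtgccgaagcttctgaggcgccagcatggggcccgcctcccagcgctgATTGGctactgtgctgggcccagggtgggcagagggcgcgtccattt

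The sterol regulatory element in this spelling was present in Hmgcs1 alone of the 29 genes (3.45%), against 1.22% of 27025 genes in the table and 1.26% of the 9732 genes of the table that were tested on the arrays. A CCAAT box was present in 22 of the 29 genes (75.9%), against 37.5% of all genes in the table and 40.3% of those tested. A GC box was present in 24 genes (82.8%), against 35.4% and 60.5%. Both boxes occurred in 19 genes (65.5%), against 13.8% of all genes and 24.9% of those tested. All 7 promoters printed hold both boxes, those of genes that were lower in follicular cells as well as that of Tm7sf2, which was higher in TFH cells. These 7 were picked, and other called genes lacked a box. Of those lower in both follicular cell types, Elovl5 had no GC box and Abca1 no CCAAT box. Pmvk, higher in both, had no GC box. A match is a run of letters and was not tested for binding, and a gene without a match in this window may have one elsewhere.

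**Figure D1:**
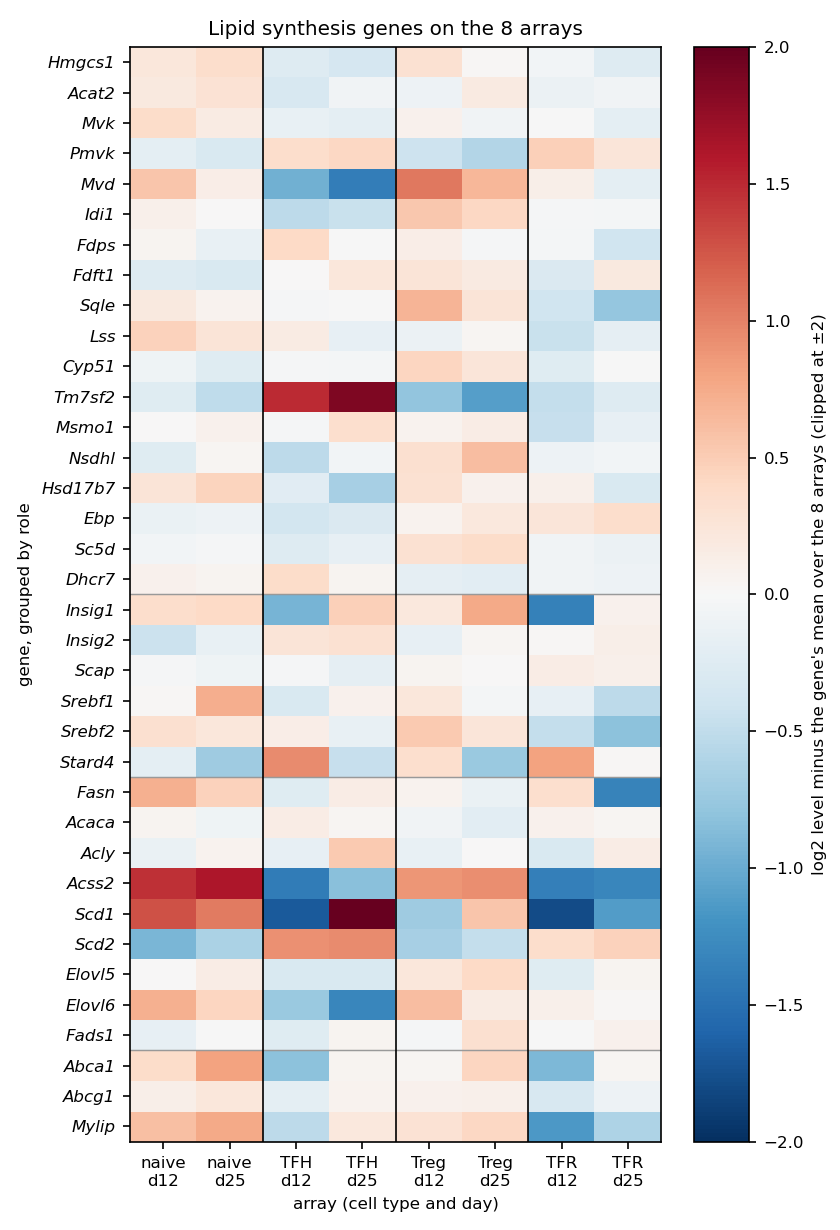
Log2 level of the 36 tested genes (rows, grouped by role as sterol synthesis, SREBP control and transport, fatty acid synthesis, export and LXR targets) on the 8 arrays (columns), minus the mean of the gene over all arrays and clipped at ±2. Acss2 is blue on all 4 follicular arrays and red on the others, Tm7sf2 is red on the 2 TFH arrays only, and Insig1, Stard4, and Scd1 differ between the days within TFH cells.

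More of the 36 genes were called lower than higher in follicular cells. In TFH versus naïve CD4 T cells, 11 were lower and 4 higher (30.6% and 11.1%), whereas 25.6% of all genes tested were lower and 20.9% higher. Their median difference was -0.22 and that of all genes -0.07. In TFR versus Treg cells, 12 were lower and 2 higher (33.3% and 5.56%), against 20.9% of all genes lower and 18.7% higher, with medians of -0.31 and -0.08. With all arrays, the share of lower calls was thus near that of all genes in TFH cells and above it in TFR cells, and the share of higher calls was below that of all genes in both. Proliferation genes went the other way, with 10 of 13 tested higher in TFH and 12 of 13 in TFR cells, and their part in these differences was not tested. Of the genes that were lower, 6 were so in both comparisons (54.5% of the 11 and 50% of the 12), namely Mvd, Idi1, Acss2, Elovl5, Abca1, and Mylip, and among all genes 2261 were (56% of 4035 and 68.5% of 3301). Pmvk and Scd2 were higher in both comparisons, none of the 36 was called in opposite directions, and 15 were called in neither. The comparisons share no arrays but share 1 estimate of the spread. In these sorted populations, fewer cells of a type and less RNA per cell cannot be told apart. Omission of 1 array at a time left 2 to 6 higher and 5 to 11 lower calls in TFH versus naïve CD4 T cells, with 5 lower calls without the naïve array of d12, 6 without that of d25, and 7 without the TFH array of d12 (13.9%, 16.7%, and 19.4%, against 13.2%, 14.9%, and 19.3% of all genes). It left 2 higher and 3 to 10 lower calls in TFR versus Treg cells, with 3 to 5 lower calls when an array of either cell type was omitted. Calls over all genes fell too, and without the TFR array of d25 the 3 lower calls (8.33%) were near the 6.84% of all genes, whereas without the TFR array of d12 they were 13.9% against 6.32%, without the Treg array of d12 11.1% against 6.9%, and without that of d25 13.9% against 7.49%. Without the TFH array of d25, which had the B cell signal, the genes added to the calls in TFH cells were Stard4 (1.00), Scd1 (-2.55), and Fads2 (1.38). Fads2 was then kept through the other TFH array alone, with both naïve arrays at the floor of 20.

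The other comparisons gave fewer calls. In TFR versus TFH cells, 4 of the 36 genes were higher and 7 lower, whereas 11.6% of all genes tested were higher and 10.5% lower. Omission of any 1 array left 1 to 4 higher and 0 to 4 lower calls. Without the TFR array of d12 they were 2 and 0 (5.56% and 0%, against 3.6% and 2.49% of all genes). Without that of d25 they were 1 and 1 (2.78% each, against 3.79% and 3.04% of all genes). In Treg versus naïve CD4 T cells, Mvd was higher and 0 genes were lower, against 5.89% and 3.98% of all genes. An unadjusted limma p below 0.05 was found for 10 of the 36 and for 4325 of all 15764 genes tested, a similar share. The difference between the follicular changes, that is TFR versus Treg minus TFH versus naïve, was called for 5 genes, 2 positive and 3 negative, against 4.03% and 4.46% of all genes. Between d25 and d12, 0 of the 36 genes were called, and among all genes 0.019% were called higher and 0.0507% lower. Here 12 of the 36 had an unadjusted limma p below 0.05, as did 4545 of the 15764 genes tested. Day cannot be told apart from slide. The highest mean level was found in Treg cells for 11 of the 36 genes (30.6%, all genes 19.3%) and in TFR cells for 3 (8.33%, all genes 23.1%). Among the 18 sterol enzymes, the lowest mean level lay in TFH cells for 9 (50%, all genes 26.1%).

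**Figure D2:**
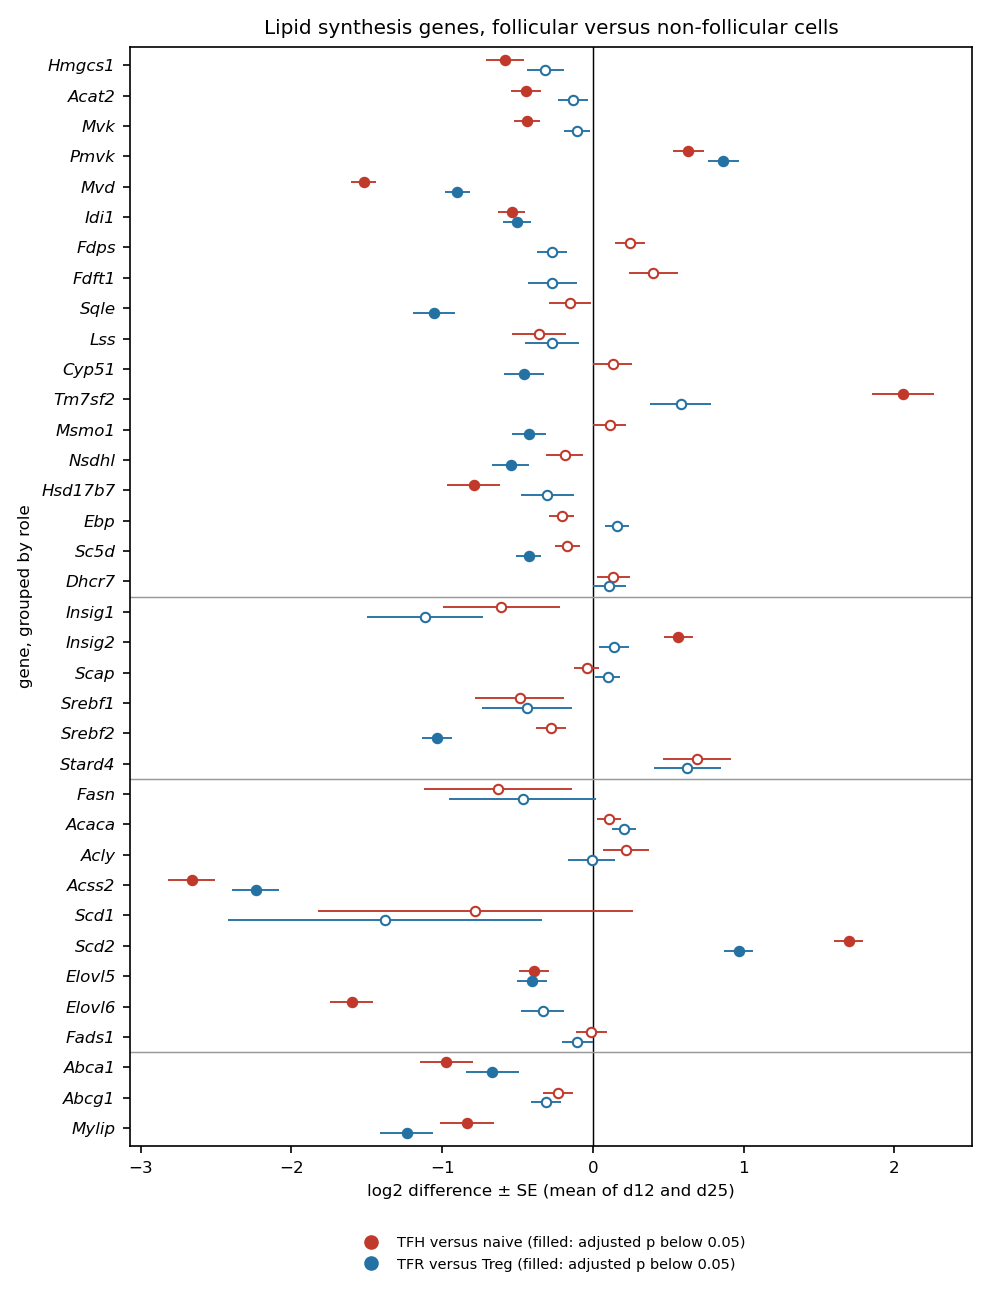
Log2 difference with SE (horizontal axis) of the 36 genes (vertical axis, grouped by role) in TFH versus naïve CD4 T cells (red) and in TFR versus Treg cells (blue), with filled symbols for an adjusted p below 0.05. Acss2 is farthest to the left in both, Tm7sf2 and Scd2 are farthest to the right in TFH cells, and Sqle and Srebf2 are filled in TFR cells only.

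The enzymes of sterol synthesis start with the mevalonate pathway, and its members were lower in TFH cells with the exception of Pmvk and Fdps. Hmgcs1, which joins acetyl-CoA and acetoacetyl-CoA, had levels of 8322 and 9050 in naïve CD4 T cells (d12 and d25 in all such pairs) and of 5954 and 5635 in TFH cells, and Hmgcs1 was thus lower in TFH cells at both days. The differences were -0.58 ± 0.12 (adjusted p = 0.0169) for Hmgcs1, -0.45 ± 0.10 for Acat2, the thiolase in front of it, and -0.44 ± 0.09 for Mvk, the mevalonate kinase. In TFR versus Treg cells these genes had differences of -0.32, -0.13, and -0.11 and were not called. Each of these calls in TFH cells was lost on omission of some arrays of the comparison, for Hmgcs1 without the TFH array of d12 (-0.56), the naïve array of d25 (-0.43) or the TFH array of d25 (-0.60), for Acat2 without either naïve array (-0.40 and -0.50) or the TFH array of d12 (-0.39), and for Mvk without either naïve array (-0.40 and -0.48). Pmvk, the phosphomevalonate kinase that follows Mvk, was higher in both follicular cell types. Its levels were 8750 and 8081 in naïve CD4 T cells, 12786 and 13282 in TFH cells, 7466 and 6685 in Treg cells, and 13957 and 11847 in TFR cells. The follicular arrays of Pmvk were all above the others, with differences of 0.63 ± 0.10 in TFH cells (adjusted p = 0.00783) and 0.86 ± 0.10 in TFR cells (adjusted p = 0.00452). The call for Pmvk in TFH cells was lost without either naïve array (adjusted p = 0.0525 and 0.0505, with a difference of 0.63 each).

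Mvd, the decarboxylase that yields isopentenyl diphosphate, had the strongest fall among the sterol enzymes in TFH cells. Its levels were 2332 and 1735 in naïve CD4 T cells, 811 and 606 in TFH cells, 3295 and 2505 in Treg cells, and 1722 and 1378 in TFR cells. Both TFH arrays lay below all others and both Treg arrays above all others. Mvd was 2.87-fold lower in TFH cells than in naïve cells (-1.52 ± 0.08, adjusted p = 0.000338, and -1.52 at each day). It was 1.87-fold lower in TFR than in Treg cells (-0.90 ± 0.08, adjusted p = 0.00236). It was higher in TFR than in TFH cells by 1.14 ± 0.08 (adjusted p = 0.00187) and was the sole gene of the 36 called between Treg and naïve CD4 T cells (0.51 ± 0.08, adjusted p = 0.0251). The call in Treg cells was lost on omission of 1 of 6 arrays, namely any of the naïve, Treg, and TFR arrays, with differences of 0.49 to 0.54 (adjusted p = 0.0705 to 0.161).

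Idi1, which isomerizes isopentenyl diphosphate, was lower in both follicular cell types. Its levels were 4111 and 3833 in naïve CD4 T cells, 2665 and 2801 in TFH cells, 5550 and 5086 in Treg cells, and 3770 and 3717 in TFR cells. The differences were -0.54 ± 0.09 in TFH cells (adjusted p = 0.00888) and -0.51 ± 0.09 in TFR cells (adjusted p = 0.0135), and Idi1 was higher in TFR than in TFH cells by 0.45 ± 0.09 (adjusted p = 0.0289). These calls were lost without the naïve array of d12 in the first comparison (-0.50), without any of the 4 arrays of the second (-0.45 to -0.56), and for TFR versus TFH cells without any array other than that of TFH cells at d25 (0.38 to 0.47). Fdps, the farnesyl diphosphate synthase at the branch to prenylated proteins, had levels of 8520 and 7395 in naïve CD4 T cells, 10823 and 8170 in TFH cells, 9010 and 8013 in Treg cells, and 7999 and 6199 in TFR cells. It was lower in TFR than in TFH cells by -0.42 ± 0.10 (adjusted p = 0.0452), a call lost on omission of any of the 8 arrays, with -0.34 to -0.50, and had differences of 0.24 ± 0.10 and -0.27 ± 0.10 in the follicular comparisons, which were not called.

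Of the later enzymes, Sqle, Cyp51, Msmo1, Nsdhl, and Sc5d were called lower in TFR versus Treg cells and were not called in TFH versus naïve cells, but for none of them was the difference between these changes called. Sqle, the squalene monooxygenase and a control point of the pathway, had levels of 4124 and 3793 in naïve CD4 T cells, 3548 and 3585 in TFH cells, 5766 and 4289 in Treg cells, and 2721 and 2104 in TFR cells. Both TFR arrays lay below all 6 others. Sqle was 2.08-fold lower in TFR than in Treg cells (-1.06 ± 0.14, adjusted p = 0.00575), and this call was lost without the TFR array of d25 (-0.96, adjusted p = 0.0531). In TFH versus naïve CD4 T cells the difference was -0.15 ± 0.14 (adjusted p = 0.418). The difference between these changes, -0.91 ± 0.20, did not pass the threshold (adjusted p = 0.0605), so that Sqle is not shown to change differently in the follicular cell types. In TFR versus TFH cells Sqle was lower by -0.58 ± 0.14 (adjusted p = 0.045), but this call was lost on omission of any array other than that of TFH cells at d12, with -0.42 to -0.67, and with slide as a fixed (-0.40) or a random block (-0.51).

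Smaller differences in TFR cells were seen for the enzymes that shape the sterol rings. Nsdhl, a dehydrogenase that acts in removal of methyl groups at carbon 4, was lower in TFR than in Treg cells by -0.55 ± 0.12 (adjusted p = 0.0244), Cyp51, the lanosterol demethylase, by -0.46 ± 0.13 (adjusted p = 0.0467), Sc5d, the sterol C5 desaturase, by -0.43 ± 0.08 (adjusted p = 0.0166), and Msmo1, the C4 methyl oxidase, by -0.42 ± 0.11 (adjusted p = 0.0384). Nsdhl had levels of 553 and 675 in Treg cells and 413 and 425 in TFR cells, and Msmo1 had 6884 and 7320 in Treg cells and 4759 and 5897 in TFR cells. The calls for Nsdhl, Cyp51, Sc5d, and Msmo1 were lost on omission of 5, 8, 4, and 6 of the 8 arrays, respectively, with differences of -0.39 to -0.56 for Nsdhl, -0.28 to -0.63 for Cyp51, -0.37 to -0.48 for Sc5d, and -0.34 to -0.50 for Msmo1. In TFH versus naïve CD4 T cells the 4 genes had differences between -0.19 and 0.13 and were not called. Msmo1 was also lower in TFR than in TFH cells (-0.47 ± 0.11, adjusted p = 0.0433), which was lost on omission of any array (-0.37 to -0.57). Hsd17b7, the 3-ketosteroid reductase of the pathway, was instead called in TFH cells, with levels of 266 and 302 in naïve CD4 T cells and 190 and 141 in TFH cells (-0.79 ± 0.18, adjusted p = 0.0195), a call lost without the naïve (-0.52) or the TFH array (-0.65) of d25. Fdft1, the squalene synthase, Lss, the lanosterol synthase, and Dhcr7, the last reductase, were called in no comparison, and their levels were between 1914 and 2824, between 134 and 252, and between 978 and 1458.

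Tm7sf2 and Ebp behaved otherwise. Tm7sf2, the sterol C14 reductase of the endoplasmic reticulum, had levels of 3278 and 2709 in naïve CD4 T cells, 10912 and 14092 in TFH cells, 2229 and 1805 in Treg cells, and 2790 and 3230 in TFR cells. Both TFH arrays were far above all others. Tm7sf2 was 4.16-fold higher in TFH cells than in naïve cells (2.06 ± 0.20, adjusted p = 0.00177), and a second probe gave 1.97. In TFR versus Treg cells the difference was 0.58 ± 0.20 (adjusted p = 0.0781). Tm7sf2 was 4.13-fold lower in TFR than in TFH cells (-2.05 ± 0.20, adjusted p = 0.00445), which did not hold without the TFR array of d12 (-1.91, adjusted p = 0.0543). Ebp, the sterol isomerase, had levels of 36933 and 37759 in naïve CD4 T cells, 31483 and 33204 in TFH cells, 42789 and 47121 in Treg cells, and 48215 and 52078 in TFR cells. It was called in neither follicular comparison (-0.21 ± 0.08 in TFH and 0.16 ± 0.08 in TFR cells) but was 1.55-fold higher in TFR than in TFH cells (0.63 ± 0.08, adjusted p = 0.00859), which was lost without either TFR array (0.65 and 0.62, adjusted p = 0.0712 and 0.072). Over the 18 sterol enzymes, 2 were called higher and 6 lower in TFH versus naïve cells (11.1% and 33.3%, all genes 20.9% and 25.6%). In TFR versus Treg cells 1 was higher and 7 lower (5.56% and 38.9%, all genes 18.7% and 20.9%). In TFR versus TFH cells 3 were higher and 4 lower (16.7% and 22.2%, all genes 11.6% and 10.5%). The medians were -0.18, -0.29, and 0.03 in that order.

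**Figure D3:**
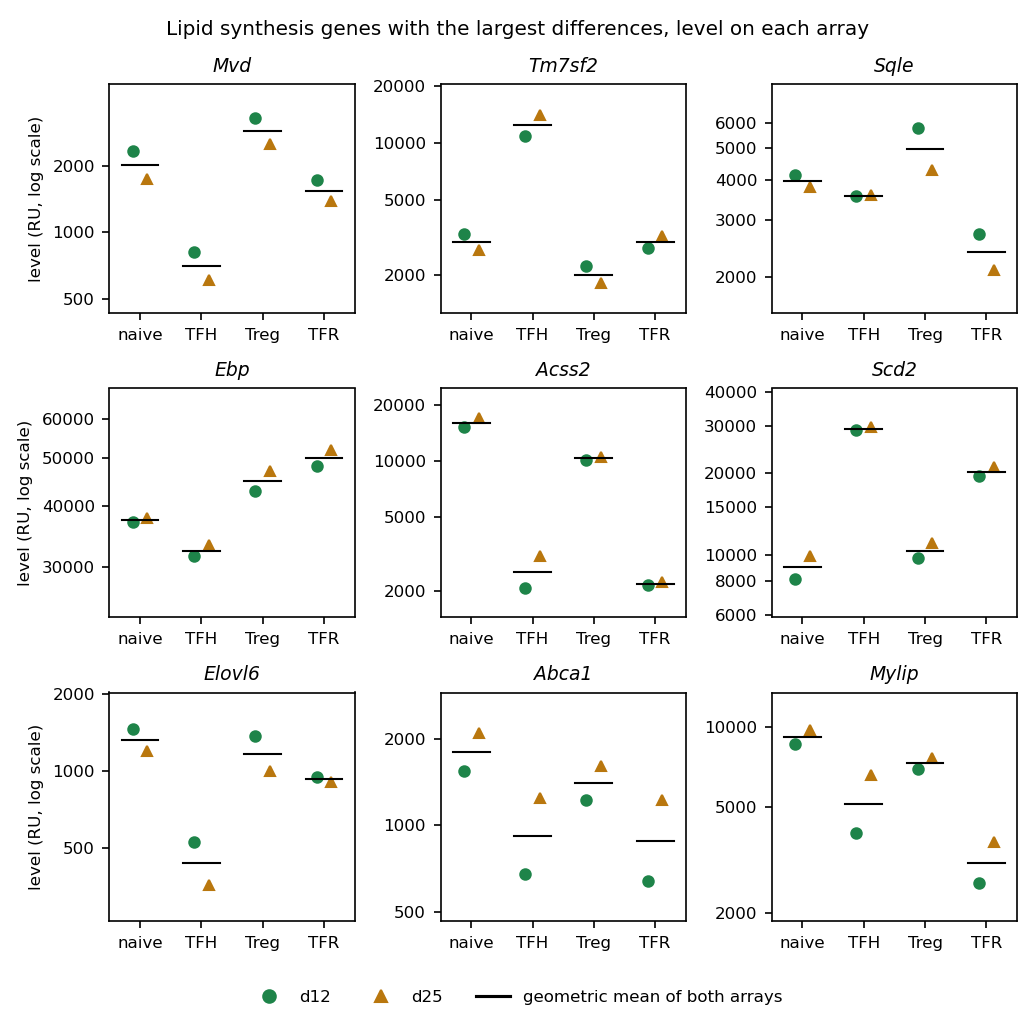
Level on each array (vertical axis, RU, log scale) of 9 genes with large differences in the 4 cell types (horizontal axis), with d12 as circles, d25 as triangles and the geometric mean of both as a line. TFH cells stand apart for Mvd, Tm7sf2, and Elovl6, TFR cells are lowest for Sqle and Mylip, and both follicular cell types share low Acss2 and high Scd2.

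Among the genes that control SREBP activity, Srebf2 stood out. Srebf2 encodes SREBP2, the factor known to drive the sterol enzymes, and had levels of 7967 and 7475 in naïve CD4 T cells, 7033 and 5761 in TFH cells, 9183 and 7591 in Treg cells, and 4621 and 3608 in TFR cells. Both TFR arrays lay below all others. Srebf2 was 2.05-fold lower in TFR than in Treg cells (-1.03 ± 0.10, adjusted p = 0.00272), with -0.99 at d12 and -1.07 at d25 and -1.17 for a second probe. In TFH versus naïve CD4 T cells the difference was -0.28 ± 0.10 (adjusted p = 0.0746), and the second probe gave -0.56. In TFR versus TFH cells Srebf2 was 1.56-fold lower (-0.64 ± 0.10, adjusted p = 0.0142), a call lost without any of the 4 arrays of these cells (-0.57 to -0.71, adjusted p = 0.054 to 0.102).

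Srebf1 encodes SREBP1, the factor known for fatty acid genes. Its levels were 367 and 598 in naïve CD4 T cells, 292 and 383 in TFH cells, 424 and 352 in Treg cells, and 324 and 251 in TFR cells. The naïve and TFH arrays overlapped, and the difference was -0.49 ± 0.30 (adjusted p = 0.235), with -0.44 ± 0.30 in TFR versus Treg cells (adjusted p = 0.292). Scap, the escort of both factors, differed little. Its levels were 15101 and 14489 in naïve CD4 T cells, 15178 and 13592 in TFH cells, 15953 and 15426 in Treg cells, and 17003 and 16570 in TFR cells. The differences of Scap were -0.04 ± 0.08 in TFH cells, 0.10 ± 0.08 in TFR versus Treg cells, and 0.22 ± 0.08 in TFR versus TFH cells, and none was called (adjusted p = 0.703, 0.393, and 0.122).

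The Insig genes encode the proteins that retain Scap, and Insig1 is itself a known SREBP target. Insig1 had levels of 359 and 369 in naïve CD4 T cells, 147 and 389 in TFH cells, 324 and 474 in Treg cells, and 110 and 298 in TFR cells. Insig1 was low in both follicular cell types at d12, whereas at d25 TFH cells were level with naïve CD4 T cells. The differences, -0.61 ± 0.39 in TFH cells (-1.29 at d12 and 0.08 at d25) and -1.11 ± 0.39 in TFR cells (-1.56 and -0.67), were not called (adjusted p = 0.251 and 0.0759), although the second passed the threshold without either naïve array (adjusted p = 0.0479 and 0.0481). Insig2 had levels of 1387 and 1688 in naïve CD4 T cells, 2234 and 2302 in TFH cells, 1672 and 1919 in Treg cells, and 1912 and 2038 in TFR cells. Both TFH arrays were the highest, and Insig2 was higher in TFH cells than in naïve cells by 0.57 ± 0.10 (adjusted p = 0.0092), which was lost without the naïve array of d12 (0.48, adjusted p = 0.0635), with 0.14 ± 0.10 in TFR cells (adjusted p = 0.302). A second, dimmer probe of Insig2 gave 0.34 in TFH and -0.37 in TFR cells. Stard4, a carrier of cholesterol between membranes, had levels between 293 and 944 that were higher at d12 than at d25 in each cell type (-0.94 ± 0.16 for d25 versus d12, adjusted p = 0.0706), and its differences of 0.69 ± 0.22 in TFH and 0.63 ± 0.22 in TFR cells were not called.

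**Figure D4:**
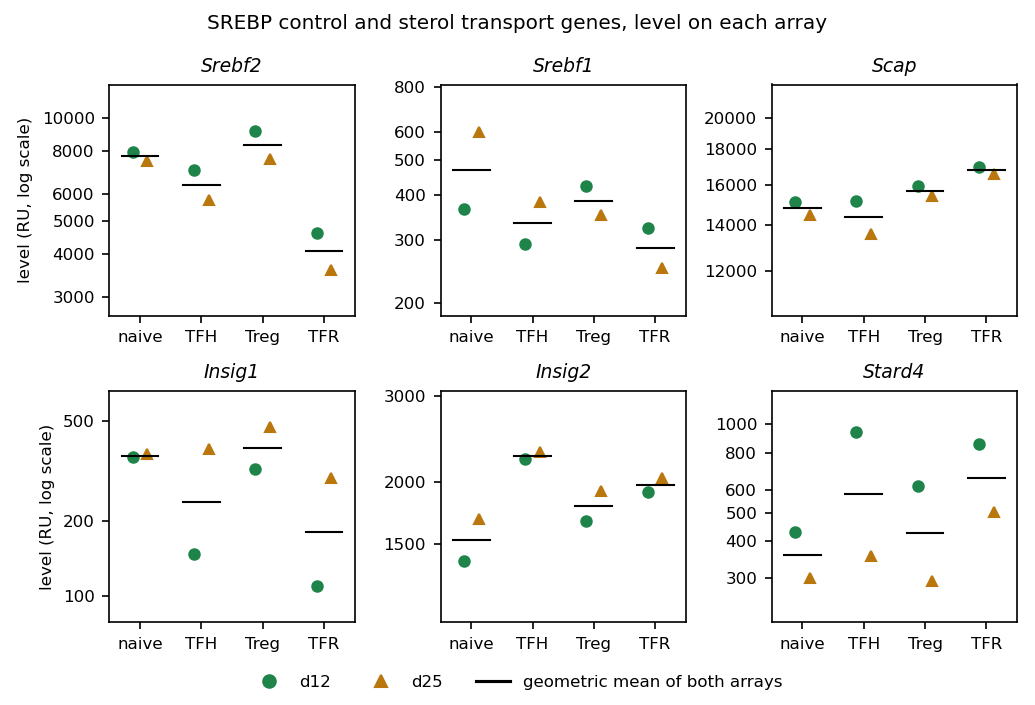
Level on each array (vertical axis, RU, log scale) of the 6 genes of SREBP control and sterol transport in the 4 cell types (horizontal axis), with d12 as circles, d25 as triangles and the geometric mean of both as a line. TFR cells are lowest for Srebf2 on both arrays, Scap spans only 13592 to 17003, and Insig1 and Stard4 are spread by day.

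Acss2 had the largest called difference among the 36 genes. Acss2 makes acetyl-CoA from acetate in cytosol and nucleus and had levels of 15152 and 16949 in naïve CD4 T cells, 2078 and 3093 in TFH cells, 10108 and 10512 in Treg cells, and 2137 and 2235 in TFR cells. All 4 follicular arrays lay far below the 4 others. Acss2 was 6.32-fold lower in TFH cells than in naïve cells (-2.66 ± 0.16, adjusted p = 0.000428) and 4.72-fold lower in TFR than in Treg cells (-2.24 ± 0.16, adjusted p = 0.0013). A second probe gave -2.85 in TFR versus Treg cells and an even larger fall in TFH cells. In TFR versus TFH cells the difference was -0.21 ± 0.16 (adjusted p = 0.378). In Treg versus naïve cells it was -0.64 ± 0.16 (adjusted p = 0.0745), which passed the threshold without either TFH array (adjusted p = 0.0255 and 0.0257). Acly, which makes acetyl-CoA from citrate, had levels between 29882 and 53093, and Acaca, the acetyl-CoA carboxylase, between 3705 and 4768, and both were called in no comparison. The differences were 0.22 ± 0.15 and -0.01 ± 0.15 for Acly and 0.11 ± 0.08 and 0.21 ± 0.08 for Acaca in the follicular comparisons. Fasn, the fatty acid synthase itself, had levels of 477 and 401 in naïve CD4 T cells, 247 and 323 in TFH cells, 307 and 266 in Treg cells, and 369 and 116 in TFR cells. Fasn spread widely between days, and its differences of -0.63 ± 0.49 in TFH and -0.47 ± 0.49 in TFR cells were not called.

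Among the desaturases, Scd2 rose in both follicular cell types. Scd2 is a stearoyl-CoA desaturase that introduces the first double bond. Its levels were 8176 and 9954 in naïve CD4 T cells, 28845 and 29646 in TFH cells, 9736 and 11077 in Treg cells, and 19498 and 21151 in TFR cells. All follicular arrays lay above all others. Scd2 was 3.24-fold higher in TFH cells than in naïve cells (1.70 ± 0.10, adjusted p = 0.000389) and 1.96-fold higher in TFR than in Treg cells (0.97 ± 0.10, adjusted p = 0.00292). It was lower in TFR than in TFH cells by -0.53 ± 0.10 (adjusted p = 0.0222), a call lost without the TFH array of d12, either Treg array or either TFR array (-0.45 to -0.55, adjusted p = 0.0572 to 0.135). The related Scd1 had levels of 166 and 141 in naïve CD4 T cells, 21 and 370 in TFH cells, 42 and 101 in Treg cells, and 20 and 32 in TFR cells. Scd1 was well above background on both naïve arrays and on the TFH and Treg arrays of d25, not on either TFR array, and the highest value stood on the TFH array with the B cell signal, whose part in it was not tested. With all arrays Scd1 was called nowhere (adjusted p = 0.271 in TFR versus TFH cells). Without the TFH array of d12 it was called in TFR versus TFH cells (-3.60, adjusted p = 0.0308), and without that of d25 in TFH versus naïve cells (-2.55, adjusted p = 0.0323).

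Of the elongases, Elovl6 differed between TFR and TFH cells and Elovl5 was not called between them. Elovl6, which extends palmitate to stearate, had levels of 1460 and 1197 in naïve CD4 T cells, 529 and 359 in TFH cells, 1370 and 998 in Treg cells, and 950 and 907 in TFR cells. Both TFH arrays lay below all others. Elovl6 was 3.03-fold lower in TFH cells than in naïve cells (-1.60 ± 0.14, adjusted p = 0.00129), had a difference of -0.33 ± 0.14 in TFR versus Treg cells (adjusted p = 0.123), and was 2.13-fold higher in TFR than in TFH cells (1.09 ± 0.14, adjusted p = 0.00892). The last call was lost without the TFR array of d25 (0.91, adjusted p = 0.0558). Elovl5, which extends polyunsaturated chains, was lower by -0.39 ± 0.10 in TFH cells (adjusted p = 0.0309) and by -0.40 ± 0.10 in TFR cells (adjusted p = 0.033), with levels of 17697 and 19498 in naïve CD4 T cells, 14143 and 14206 in TFH cells, 20445 and 23185 in Treg cells, and 14874 and 18218 in TFR cells. Each of these calls for Elovl5 was lost on omission of 6 of the 8 arrays, with -0.29 to -0.40 in TFH cells and -0.31 to -0.49 in TFR cells. Fads1, the delta-5 desaturase, had levels between 330 and 486 and was called in no comparison. Of the 9 fatty acid genes tested, 1 was higher and 3 lower in TFH cells (11.1% and 33.3%, all genes 20.9% and 25.6%). In TFR versus Treg cells 1 was higher and 2 lower (11.1% and 22.2%, all genes 18.7% and 20.9%). In TFR versus TFH cells 1 was higher and 1 lower (11.1% each, all genes 11.6% and 10.5%).

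The 3 genes of the export side were highest in naïve CD4 T and lowest in TFR cells by their mean levels. Abca1, the exporter of cholesterol to lipid-poor apolipoprotein, had levels of 1539 and 2097 in naïve CD4 T cells, 675 and 1240 in TFH cells, 1226 and 1604 in Treg cells, and 638 and 1223 in TFR cells. All arrays of d25 were above those of d12 of the same cell type, so that the TFR array of d25 was level with the Treg array of d12. Abca1 was 1.96-fold lower in TFH cells than in naïve cells (-0.97 ± 0.18, adjusted p = 0.0107) and 1.59-fold lower in TFR than in Treg cells (-0.67 ± 0.18, adjusted p = 0.0379). The first call was lost without the naïve or the TFH array of d12 (-0.83 each, adjusted p = 0.07 and 0.0608) and the second on omission of any of the 8 arrays (-0.48 to -0.85, adjusted p = 0.0518 to 0.2). Abcg1, which exports sterol to mature lipoprotein particles, had levels of 19384 and 21004 in naïve CD4 T cells, 15696 and 18876 in TFH cells, 19068 and 19201 in Treg cells, and 14269 and 16634 in TFR cells, with differences of -0.23 ± 0.10 and -0.31 ± 0.10 that were not called (adjusted p = 0.12 and 0.0615).

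Mylip, an LXR target that marks lipoprotein receptors for degradation, had levels of 8668 and 9706 in naïve CD4 T cells, 3988 and 6621 in TFH cells, 6973 and 7639 in Treg cells, and 2586 and 3710 in TFR cells. The TFR arrays of Mylip were the lowest and the naïve arrays the highest. Mylip was 2.36-fold lower in TFR than in Treg cells (-1.24 ± 0.18, adjusted p = 0.00728) and 1.79-fold lower in TFH cells than in naïve cells (-0.84 ± 0.18, adjusted p = 0.0174). The first call was lost without the Treg array of d12 (-1.07) or either TFR array (-1.15 and -1.33), with adjusted p = 0.0507 to 0.0663. The second was lost without the naïve (-0.69) or the TFH array (-0.61) of d12. In TFR versus TFH cells Mylip was lower by -0.73 ± 0.18 (adjusted p = 0.0461), which was lost on omission of any array other than that of TFH cells at d12 (-0.50 to -0.82) and with slide as a fixed (-0.67) or a random block (-0.71).

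The change upon follicular differentiation was compared between Foxp3-negative and Foxp3-positive cells as the difference of both changes. It was called for Elovl6 (1.27 ± 0.20, adjusted p = 0.0287), Mvd (0.62 ± 0.12, adjusted p = 0.0424), Srebf2 (-0.75 ± 0.14, adjusted p = 0.0428), Scd2 (-0.73 ± 0.14, adjusted p = 0.0428), and Tm7sf2 (-1.48 ± 0.29, adjusted p = 0.0478). The fall of Elovl6 and Mvd and the rise of Tm7sf2 and Scd2 were thus larger in TFH cells, and the difference of Srebf2 was larger in TFR cells. All 5 calls were lost with slide as a fixed block (adjusted p = 0.0665 to 0.103), with the same differences. Those for Srebf2 and Tm7sf2 were also lost with the mean of all probes of a gene. With 1 array omitted, Elovl6 remained called only without the TFH array of d12, with 1.08 to 1.45 over the 8 omissions, and Mvd (0.57 to 0.67), Srebf2 (-0.65 to -0.86), Scd2 (-0.64 to -0.81), and Tm7sf2 (-1.23 to -1.72) in no omission. Without the TFH array of d25, Fads2 passed the filter through the other TFH array alone (level 51) and had a difference of -1.28. Its level was at the floor of 20 on all naïve and Treg arrays and was 20 and 23 in TFR cells, so that this value tests nothing. At both days the 5 differences had the same sign. Comparisons of TFR with TFH cells share arrays with those above, and at d25 they cross slides, so that with slide as a fixed block only Mvd was called higher (1.10) and only Tm7sf2 lower (adjusted p = 0.0366) in TFR cells.

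**Figure D5:**
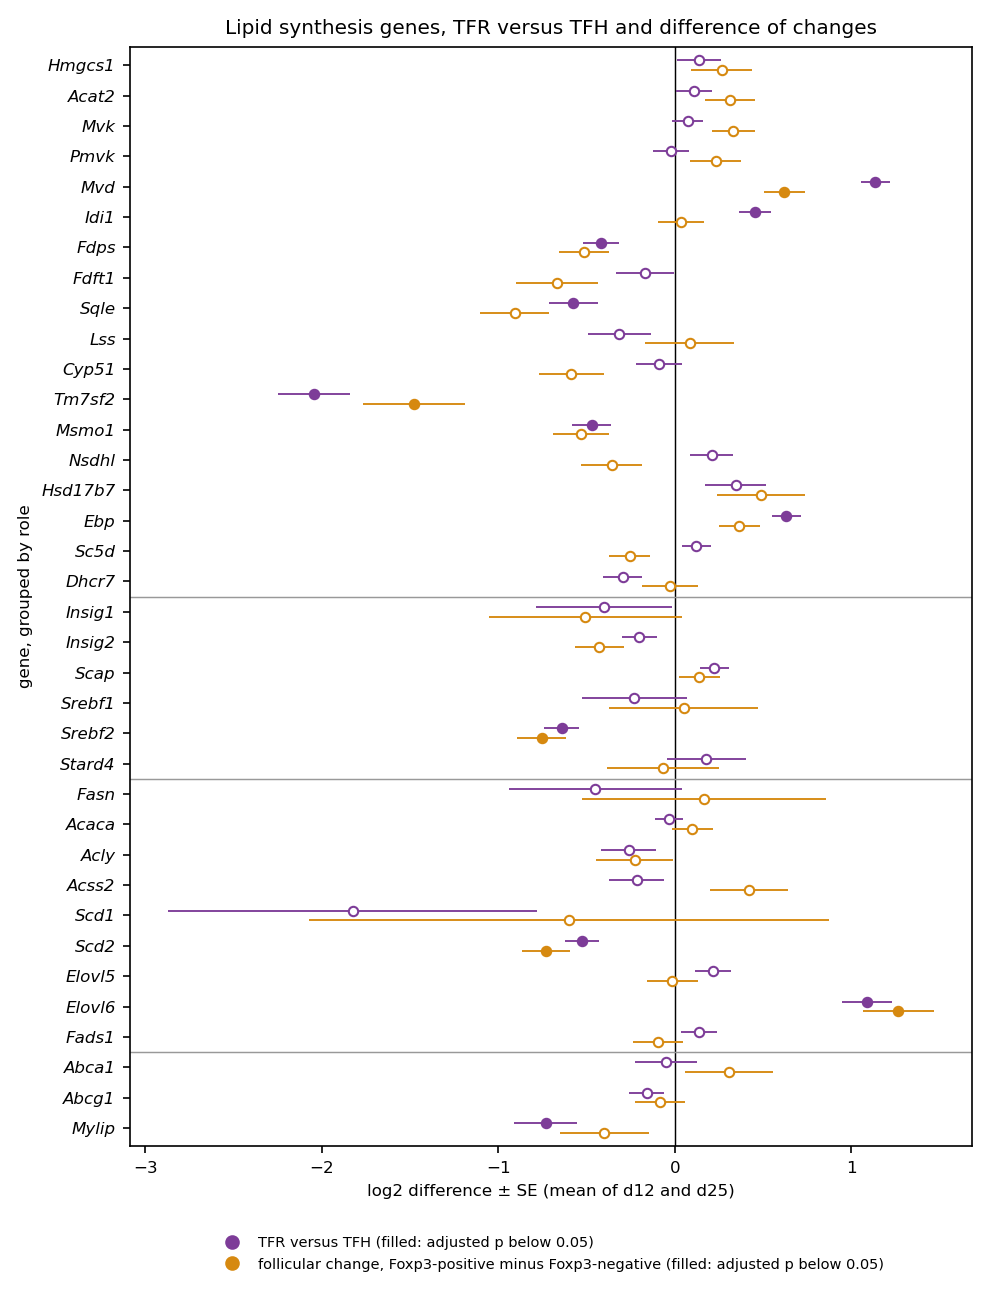
Log2 difference with SE (horizontal axis) of the 36 genes (vertical axis, grouped by role) in TFR versus TFH cells (purple) and between the follicular changes, TFR versus Treg minus TFH versus naïve (orange), with filled symbols for an adjusted p below 0.05. Tm7sf2 lies farthest to the left by both symbols, which are filled, and Mvd and Elovl6 lie farthest to the right.

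Other genes around these pathways were counted from lists of 5 to 21 genes, to be read beside the 20.9% of all genes called higher and 25.6% lower in TFH versus naïve and the 18.7% and 20.9% in TFR versus Treg cells. Of 13 genes of the isoprenoid branch, 1 was higher and 3 lower in TFH cells and 3 lower in TFR versus Treg cells, with Fntb, the beta subunit of farnesyltransferase, lowest (-2.03 ± 0.18 and -1.63 ± 0.18). Of 10 tested genes of SREBP processing and sterol sensing, 4 were higher and 1 lower in TFH cells and 1 higher and 1 lower in TFR cells. Syvn1, a ubiquitin ligase of the endoplasmic reticulum, and Mbtps1, the site-1 protease that cleaves SREBP precursors, were higher in TFH cells (0.70 ± 0.09 and 0.67 ± 0.08), and Lpin1, a phosphatidate phosphatase known to restrain nuclear SREBP, was lower in both (-0.63 ± 0.11 and -1.34 ± 0.11). Of 12 tested genes of cholesterol uptake, storage and trafficking, 2 were higher and 3 lower in TFH cells and 2 higher and 5 lower in TFR cells. Npc2, which hands cholesterol out of lysosomes, was lower (-2.38 ± 0.10 and -1.22 ± 0.10), and Gramd1b, which carries it from the plasma membrane to the endoplasmic reticulum, was higher in both (1.95 ± 0.12 and 1.33 ± 0.12).

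Of 8 genes of the LXR receptors and their partners, 1 was higher and 3 lower in TFH cells and 1 higher and 2 lower in TFR cells. Apoe, a lipoprotein component, had levels of 839 and 906 in naïve CD4 T cells, 19838 and 158361 in TFH cells, 479 and 923 in Treg cells, and 1511 and 7088 in TFR cells. Apoe was thus highest on the TFH array with the B cell signal, but was far above naïve CD4 T cells on the other TFH array too (6.01 ± 0.72, adjusted p = 0.00311). Cd68 was also higher on both TFH arrays, 5098 at d12 and 3768 at d25, and its part in the level of Apoe was not tested. Ch25h, Cyp7b1, and Cyp27a1, enzymes of oxysterol synthesis, were at the floor on all arrays, and of the 2 other genes of that list Hsd3b7 was higher in TFR than in Treg cells (1.85 ± 0.26, adjusted p = 0.00689). Of 17 tested other genes of fatty acid synthesis, 6 were higher and 3 lower in TFH cells and 4 higher and 3 lower in TFR cells, and of 20 genes of fatty acid oxidation, 5 were higher and 4 lower in TFH cells and 5 higher and 2 lower in TFR cells. Elovl7, another elongase, was at least 17.6-fold lower in TFH than in naïve cells, a bound that was not tested because both TFH arrays were at the floor of 20. For this bound each TFH array, not well above background, was set at the lowest signal that was. Elovl7 was well above background on the naïve arrays only (528 and 691). It was also low in Treg cells (52 and 53), which are not follicular. Acot7, an acyl-CoA thioesterase, was higher in both follicular cell types (4.78-fold in TFH and 2.84-fold in TFR cells), and Acaa2, the thiolase of mitochondrial oxidation, was lower in TFH cells (-1.19 ± 0.09), with -0.20 ± 0.09 in TFR versus Treg cells. Cpt1a, the gate of mitochondrial fatty acid uptake, was higher in TFH cells (1.01 ± 0.10, adjusted p = 0.00201), with 0.05 ± 0.10 in TFR versus Treg cells (adjusted p = 0.719).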

How the data were processed

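The deposited files are the scanner output of 8 one-color Agilent arrays (Feature Extraction 10.7.3.1), 1 per cell type and day. The spot intensity (processed signal) they hold was background-subtracted by the scanner software before the authors deposited it. The deposited series table holds normalized intensities of the same arrays. Taken to log2, they were used to check the rebuilt values (r = 0.9994 on each array) and were refitted as an alternative. Following the methods of the study, spots with outlier flags, an outlying signal among the 4 spots of a probe or a pixel coefficient of variation above 0.5 were left out, and the remaining spots were averaged, quantile normalized, scaled to a 75th percentile of 1500, floored at 20 and taken to log2. Of several probes of a gene, the one with the highest mean was used, and levels of different probes were not compared.

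Differences were tested with limma 3.58.1 (R 4.3.3) on all 8 arrays with cell type and day as terms (lmFit, eBayes), which leaves 3 residual degrees of freedom, and p-values were adjusted over 15764 genes by the method of Benjamini and Hochberg. The code was tested on simulated data. Alternatives were another scaling, normexp background correction, other probe rules and filters, no day term, slide as a block, eBayes with trend, only the 4 arrays compared, a minimum log2 difference of 1, and omission of each array. All 37 listed genes are named. Levels on every array are given for the 6 called genes with the largest differences in each follicular comparison, up to 8 each called between TFR and TFH cells or between the follicular changes, and Srebf1, Srebf2, Scap, Insig1, and Insig2, and for some others by choice. From each list of neighboring genes at most 3 are named with a difference, taken from the largest called ones. The genes, lists and tests were chosen with earlier results of these data known. Arrays give no read depth, and their number limits the precision. The 2 arrays of a cell type are separate pools of mice from different days. With day as a term, p-values rest on how differences between cell types varied between d12 and d25, over all 4 cell types. They do not measure the spread between pools of a cell type within a day, and slide at d25 is part of that variation.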

Additional observations from a re-analysis of the deposited data

Results flagged for a closer look

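In 5 genes the follicular change differed between Foxp3-positive and Foxp3-negative cells by the limma test of the difference itself (TFR versus Treg minus TFH versus naïve, log2). The difference was 0.62 for Mvd, 1.27 for Elovl6, -0.75 for Srebf2, -0.73 for Scd2, and -1.48 for Tm7sf2. None of these calls was firm: Mvd, Srebf2, Scd2, and Tm7sf2 were lost on omission of any of the 8 arrays, Elovl6 on omission of 7 of the 8, and all 5 with slide as a fixed block. For Mvd and Elovl6 the sign is positive because the fall was larger in TFH cells. For Scd2 and Tm7sf2 it is negative because the rise was larger in TFH cells. For Srebf2 it is negative because the log2 difference was -1.03 in TFR versus Treg and -0.28 in TFH versus naïve cells. Summed levels of proliferation genes were higher in TFR than in TFH cells those of B cell markers were highest on the TFH array of d25, and Cd68 was higher in both follicular cell types, and the part of these in these differences was not tested.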

How the results depend on the processing

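Of 46 called differences of single genes, 8 were called under every alternative, 38 were lost under at least 1 and 0 changed sign. The 8 were Acss2 in both follicular comparisons, Mvd, Elovl6, Scd2, and Tm7sf2 in TFH versus naïve, Mvd in TFR versus TFH, and Srebf2 in TFR versus Treg cells. The minimum log2 difference of 1 drops every smaller call by construction. Mvd, Pmvk, and Scd2 in TFR versus Treg cells were lost under that setting alone. Counts of called genes changed as follows. In TFH versus naïve CD4 T cells, 4 higher calls became 2 with only the 4 arrays compared and 2 with a log2 difference of at least 1, and 11 lower calls became 7 without a filter on dim probes, 7 without the day term, 3 with the 4 arrays and 3 with the minimum difference. In TFR versus Treg cells, 2 higher calls became 0 with the minimum difference, and 12 lower calls became 7 without the filter, 7 without the day term, 7 with the 4 arrays and 4 with the minimum difference. In TFR versus TFH cells, 4 higher calls became 2 without the filter, 1 with slide as a fixed block, 1 with the 4 arrays and 2 with the minimum difference. The 7 lower calls became 3, 1, 1, and 1 under these settings, 1 without the day term and 3 with slide as a random block. In Treg versus naïve CD4 T cells, the 1 higher call became 2 without quantile normalization, 3 with normexp, 4 with genes well above background on all 8 arrays, 2 with slide as a random block, 4 with eBayes with trend, and 0 without the day term, with the fixed block, the 4 arrays or the minimum difference, and 0 lower calls became 1 with eBayes with trend. For the difference of follicular changes, 2 positive calls became 1 without the filter, 0 without the day term, 0 with the fixed block, 1 with the random block and 1 with the minimum difference. Its 3 negative calls became 1 without quantile normalization, 1 with the mean of all probes, 0 without the filter, 1 without the day term, 0 with the fixed block, 5 with eBayes with trend and 1 with the minimum difference. With 1 array omitted, the counts (higher, lower) were 2 to 6 and 5 to 11 in TFH versus naïve, 2 to 2 and 3 to 10 in TFR versus Treg, 1 to 4 and 0 to 4 in TFR versus TFH, 0 to 1 and 0 to 1 in Treg versus naïve cells, and 0 to 1 and 0 to 1 for the difference of changes. Over all genes with 1 array omitted, the counts were 2248 to 3159 and 2090 to 3391 in TFH versus naïve cells. In TFR versus Treg cells they were 1390 to 3097 and 1012 to 3570, and in TFR versus TFH cells 576 to 1546 and 398 to 1333. In Treg versus naïve cells they were 294 to 981 and 121 to 761. For the difference of changes they were 131 to 509 and 156 to 557. The cause of these shifts was not tested, apart from fewer arrays and the stricter threshold by construction. The labels give no replicate numbers, and the arrays of a day are paired by the day term of the model. Signal near background limits Scd1, well above background on 4 of 8 arrays, and Fads2, on 1.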
